A study of Mus musculus with 24 samples.

Results

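The genes described here are the subunits and inhibitors of the transcription factor NF-kB: the subunit genes Nfkb1, Nfkb2, Rel, Rela and Relb, the inhibitor genes Nfkbia, Nfkbib and Nfkbie, the kinase gene Ikbkb and the feedback gene Tnfaip3. They were found by gene symbol, and all 10 were present in each of the 8 deposited comparison tables among 56895 entries. In resting cells the inhibitory IkB proteins hold NF-kB dimers in the cytoplasm. A signal from a cytokine or a microbial product activates the IKK kinase, the IkB protein is marked for degradation, and the freed dimer enters the nucleus. Several of the 10 genes are themselves NF-kB target genes, among them Nfkbia, Nfkbie, Nfkb2 and Tnfaip3, whose products close a feedback loop. In adipose tissue the pathway is best known in macrophages and in the inflammation of obesity. Transcript levels of these genes do not measure the phosphorylation or the nuclear entry of the proteins.

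RNA-seq was performed on retroperitoneal white adipose tissue of mice labelled C57BL/6J (C57BL/6JRJ in the methods of the study), with 8 groups of 3 mice. Mothers received a diet with vitamin D3 at 1.0 IU/g (CTRL) or at 0.0 IU/g (VDD) for at least 8 weeks before mating and then through gestation, and all mothers the control diet after birth. Male and female offspring then received a low-fat (LF) or a high-fat diet (HF, 45% of energy from fat) from 6 weeks of age for 8 weeks. The groups were therefore CTRL LF, CTRL HF, VDD LF and VDD HF in each sex, and the 8 comparisons were HF against LF on the same maternal diet and VDD against CTRL on the same offspring diet. The litter of each mouse is not given, so the p-values measure the spread between these mice, of which some may share a mother. The tissue was sequenced whole, and fewer cells of a type cannot be told apart from less RNA per cell.

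The 24 libraries held 13346779 to 18484346 reads on genes, and the sex genes matched the labelled sex in all 24. Adipocyte markers, such as Adipoq and Plin1, were abundant in every library, with a summed level of 6 genes from 287524 to 830812 normalized reads. Several libraries also held transcripts that mark neighbouring tissues. The summed level of 6 skeletal muscle markers ran from 95.5 to 837836 normalized reads and was above 10000 in 9 libraries, and the summed level of 5 kidney markers reached 6513 in VDD LF female 2303 against at most 568 in the others. In 6 of the 24 libraries, 1 in each group except the HF females, the deposited name includes "renal", which no source used here explains. The summed level of 4 adrenal cortex markers was 14203 in CTRL HF female 2292, 10976 in VDD HF female 2121 and 4630 in CTRL HF female 2290, against at most 1325 in the others. The summed level of 7 T lymphocyte markers was 1244 in VDD HF female 2081, against at most 395 in the others.

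NF-kB dimers bind the kappa B site, a motif of 10 bases. RefSeq promoter windows of 300 bases, with 250 before and 50 after a transcription start (GRCm38.p6), were found for 7 of the 10 genes; Nfkb1, Relb and Ikbkb had none in that table. The kappa B consensus was searched on both strands, and overlapping matches were merged. It was present in 8.46% of all 32851 windows, and at 2 or more places in 0.521% of them. It was found in a window of Nfkbia, Nfkbie, Nfkb2, Tnfaip3 and Rel, and no match was found in the windows of Rela and Nfkbib. The matches are printed because 4 of these 5 genes passed an adjusted p of 0.05 (limma) in HF against LF, as described further on. Of all genes tested 29.2% passed it, and so did Nfkb1, which had no window. A link between the matches and the diets was not tested. The shares above count windows, and genes with several windows, such as Nfkb2 and Tnfaip3, have more places for a match. Nfkb2 has 3 RefSeq windows, and its matches are given for the window of the most upstream start; 2 further places, at chr19:46305449-46305478 and chr19:46305695-46305724, are not printed. Each line gives 30 bases on the strand of the gene, 5′ to 3′, with the match in capitals; a match is a description of the letters and not evidence of binding.
Nfkbia, chr12:55492657-55492686, minus strand: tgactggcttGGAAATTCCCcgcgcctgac
Nfkbie, chr17:45555584-45555613, plus strand: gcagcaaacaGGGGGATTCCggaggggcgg
Nfkb2, chr19:46304688-46304717, plus strand: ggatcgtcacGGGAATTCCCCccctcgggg
Nfkb2, chr19:46304716-46304745, plus strand: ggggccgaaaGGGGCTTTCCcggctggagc
Tnfaip3, chr10:19015516-19015545, minus strand: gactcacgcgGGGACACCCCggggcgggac
Tnfaip3, chr10:19015403-19015432, minus strand: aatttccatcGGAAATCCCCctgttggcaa
Rel, chr11:23771042-23771071, minus strand: cgtaagcagcGGGAAATCCCCccccctccc

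The levels of the 10 genes were compared per kilobase of annotated exon (GENCODE M21, GRCm38), on reads scaled together over the 24 libraries. Nfkbia, which encodes IkB alpha, had the highest mean level, at 679 normalized reads per kilobase (368 to 1270 over the libraries). Rela, the gene of the transactivating subunit p65, followed at 317 (245 to 389). Ikbkb, the gene of the catalytic subunit IKK beta, and Nfkb1 stood at 194 and 185, and their ranges overlapped widely. Relb and Nfkbib were at 130 and 120, again with overlapping ranges, and Nfkb2 at 78.8. Tnfaip3, Nfkbie and Rel were the lowest, at 27.0, 26.2 and 20.6, and these 3 could not be ordered beyond their spread. The spread between libraries was widest for Nfkbie, whose highest library was 5.35 times the lowest, and narrowest for Rela, at 1.59 times. All 10 genes passed the minimum of 10 normalized reads in 3 libraries in every comparison.

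The first question was whether the HF diet altered the transcripts of these genes. Taking the 24 libraries together, with the differences of the 4 strata (maternal diet within sex) weighted equally, Nfkbia was lower in HF-fed mice, whereas Nfkbie, Nfkb2, Tnfaip3 and Nfkb1 were higher. These were 5 of 10 genes past an adjusted p of 0.05 with limma, where 29.2% of the 18399 genes tested were past it. The split was 4 higher and 1 lower, against 15.0% of all genes higher and 14.2% lower. The median log2 difference was 0.13 over the 10 genes and 0.01 over all genes tested. At the thresholds of the study, an adjusted p of 0.01 and a fold above 1.5 or below 0.66, Nfkbia and Nfkbie were called, 2 of 10 genes beside 9.44% of all genes.

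**Figure D1:**
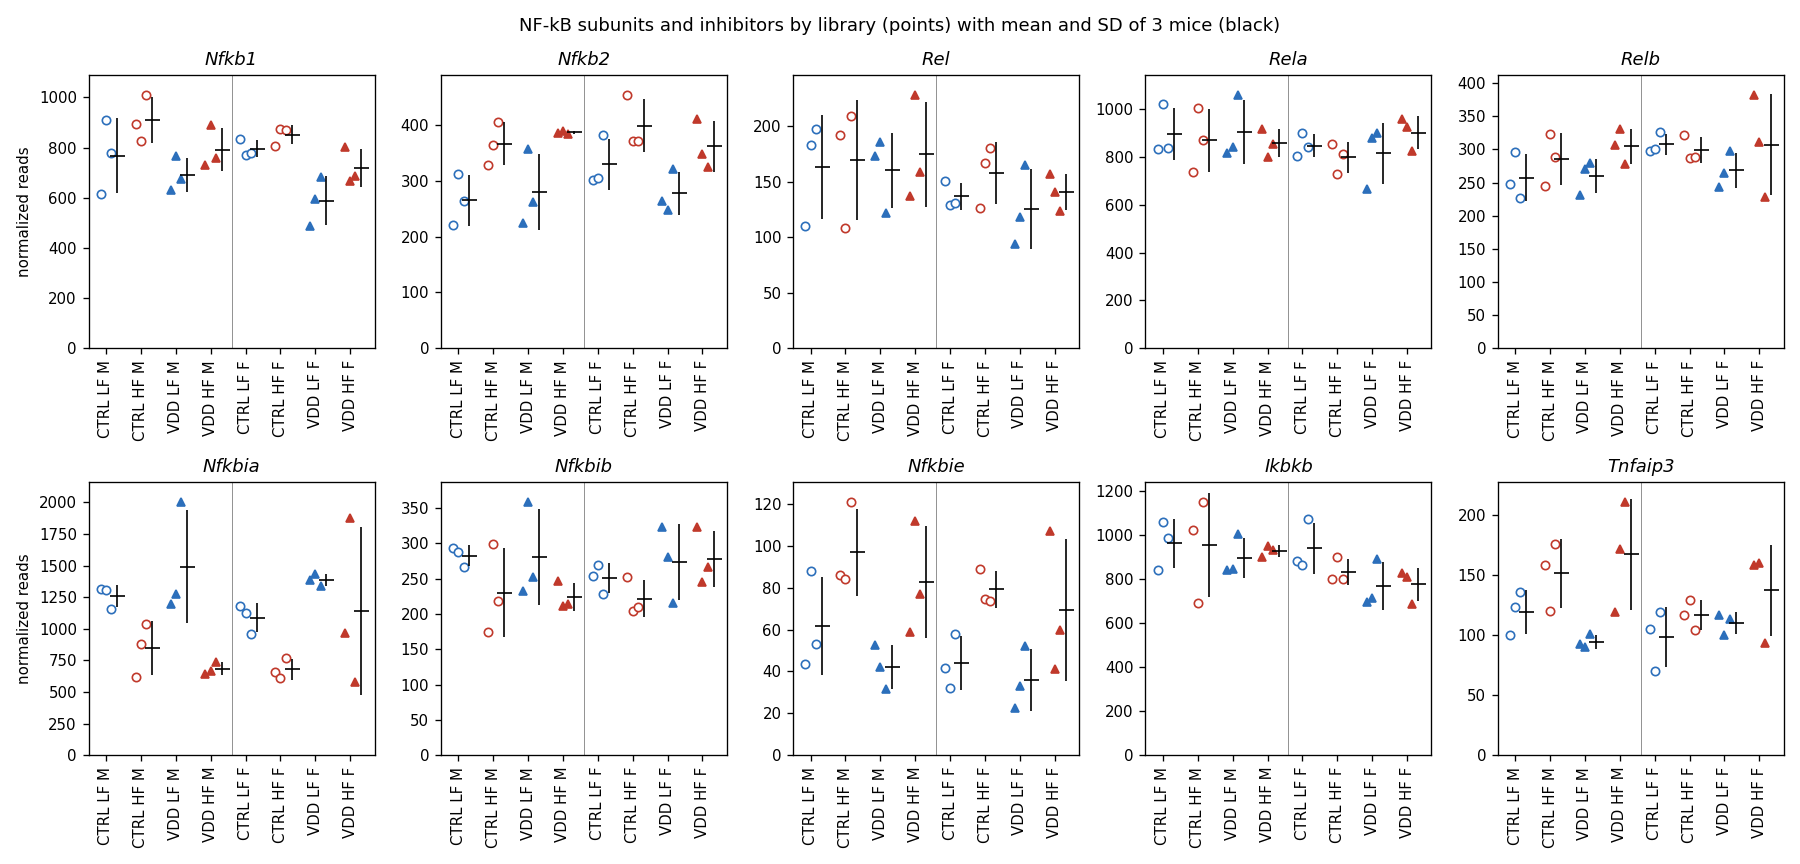
Normalized reads (linear axis from 0) of the 10 genes in each of the 24 libraries, 3 per group, on 1 common scaling. Open circles are CTRL, filled triangles VDD, blue LF and red HF, with males (M) left and females (F) right of the grey line, and the black bar gives the mean and SD. Nfkbia is lower in the HF than in the LF groups except in VDD HF female 2083 (1879), and the group means of Nfkbie and Nfkb2 are higher on HF in all 4 strata.

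Nfkbia (ENSMUSG00000021025.8, chr12:55489410-55492647, minus strand) encodes IkB alpha, the inhibitor that is resynthesised soonest after activation. In males its normalized reads were 1313, 1310 and 1156 in CTRL LF and 618, 879 and 1040 in CTRL HF. They were 1195, 1278 and 2004 in VDD LF males and 643, 668 and 739 in VDD HF males. The HF libraries were below every LF library on either maternal diet. In females the values were 1178, 1123 and 961 in CTRL LF and 659, 609 and 767 in CTRL HF, again without overlap. VDD females showed 1386, 1434 and 1339 on LF and 965, 1879 and 581 on HF, so that 1 HF library lay above all the LF libraries and the others below them. The share of all genes whose groups do not overlap was not counted, so overlap is only a description here and below. Over the 24 libraries Nfkbia was lower by a log2 difference of -0.70 ± 0.14 (SE; 0.613-fold), with an adjusted p of 0.00125 (limma). The differences in the pairwise tables were -0.62 in CTRL males, -1.09 in VDD males, -0.70 in CTRL females and -0.44 in VDD females. In VDD females the difference was -0.89 without mouse 2083 and -0.03 without mouse 2121.

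Nfkbie (ENSMUSG00000023947.8, chr17:45555703-45563169, plus strand) encodes IkB epsilon, an inhibitor that acts mainly on dimers of Rela and Rel. Its reads were 43.7, 88.2 and 52.9 in CTRL LF males and 86.0, 84.0 and 121 in CTRL HF males, where 1 LF library overlapped the HF range. In VDD males they were 52.5, 42.1 and 31.7 on LF and 58.9, 112 and 77.2 on HF, without overlap. CTRL females showed 41.8, 32.2 and 57.7 on LF and 89.1, 74.6 and 73.7 on HF, also separate. In VDD females the values were 22.6, 32.8 and 51.9 on LF and 107, 41.2 and 59.7 on HF, with an overlap. The overall log2 difference was 0.85 ± 0.18 (SE; 1.8-fold, adjusted p = 0.00197, limma), which was the largest rise among the 10 genes. The inhibitors therefore did not move in 1 direction, since Nfkbia fell and Nfkbie rose.

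Nfkb2 (ENSMUSG00000025225.15, chr19:46304320-46312385, plus strand) encodes p100, which is processed to p52 in the non-canonical pathway. The reads were 220, 311 and 264 in CTRL LF males and 328, 364 and 405 in CTRL HF males. VDD males showed 224, 356 and 261 on LF and 386, 389 and 384 on HF. HF was above LF without overlap in males of either maternal diet, as it was in VDD females (264, 247 and 320 on LF; 411, 348 and 324 on HF). In CTRL females the LF value of 382 lay within the HF range, with 301 and 304 in the other LF mice and 453, 371 and 370 on HF. The overall log2 difference was 0.40 ± 0.09 (SE; 1.32-fold, adjusted p = 0.00183, limma). The 3′ end of Nfkb2 overlaps the less abundant Psd on the opposite strand.

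Tnfaip3 (ENSMUSG00000019850.11, chr10:19000910-19015657, minus strand) encodes A20, a ubiquitin-editing enzyme that switches the pathway off. In VDD males its reads were 92.2, 90.1 and 101 on LF and 119, 172 and 211 on HF, without overlap. In the other strata the diets overlapped, with 99.8 to 136 on LF and 120 to 176 on HF in CTRL males, 70.3 to 119 and 104 to 129 in CTRL females, and 99.7 to 117 and 93.7 to 160 in VDD females. The overall log2 difference was 0.42 ± 0.12 (SE; 1.34-fold, adjusted p = 0.0143, limma). Without the 6 libraries with renal in their names it was 0.42 with an adjusted p of 0.0629.

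Nfkb1 (ENSMUSG00000028163.17, chr3:135584655-135691547, minus strand) encodes p105, the precursor of p50. Its reads ranged from 487 to 911 on LF and from 665 to 1009 on HF, and the diets overlapped in each stratum. The overall log2 difference was 0.21 ± 0.07 (SE; 1.16-fold, adjusted p = 0.0358, limma). This call was lost in 11 of the 24 fits that left out 1 library, where the adjusted p reached 0.0699 (CTRL LF male 2293, CTRL HF male 2131, VDD LF males 2078 and 2302, VDD HF male 2308, CTRL LF females 2335 and 2124, CTRL HF females 2290 and 2292, VDD LF female 2303 and VDD HF female 2081), and under upper quartile scaling (0.14, adjusted p = 0.127). The adjusted p was also above 0.05 without the filter on low reads (0.0684) and without the 6 renal-named libraries (0.114).

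**Figure D2:**
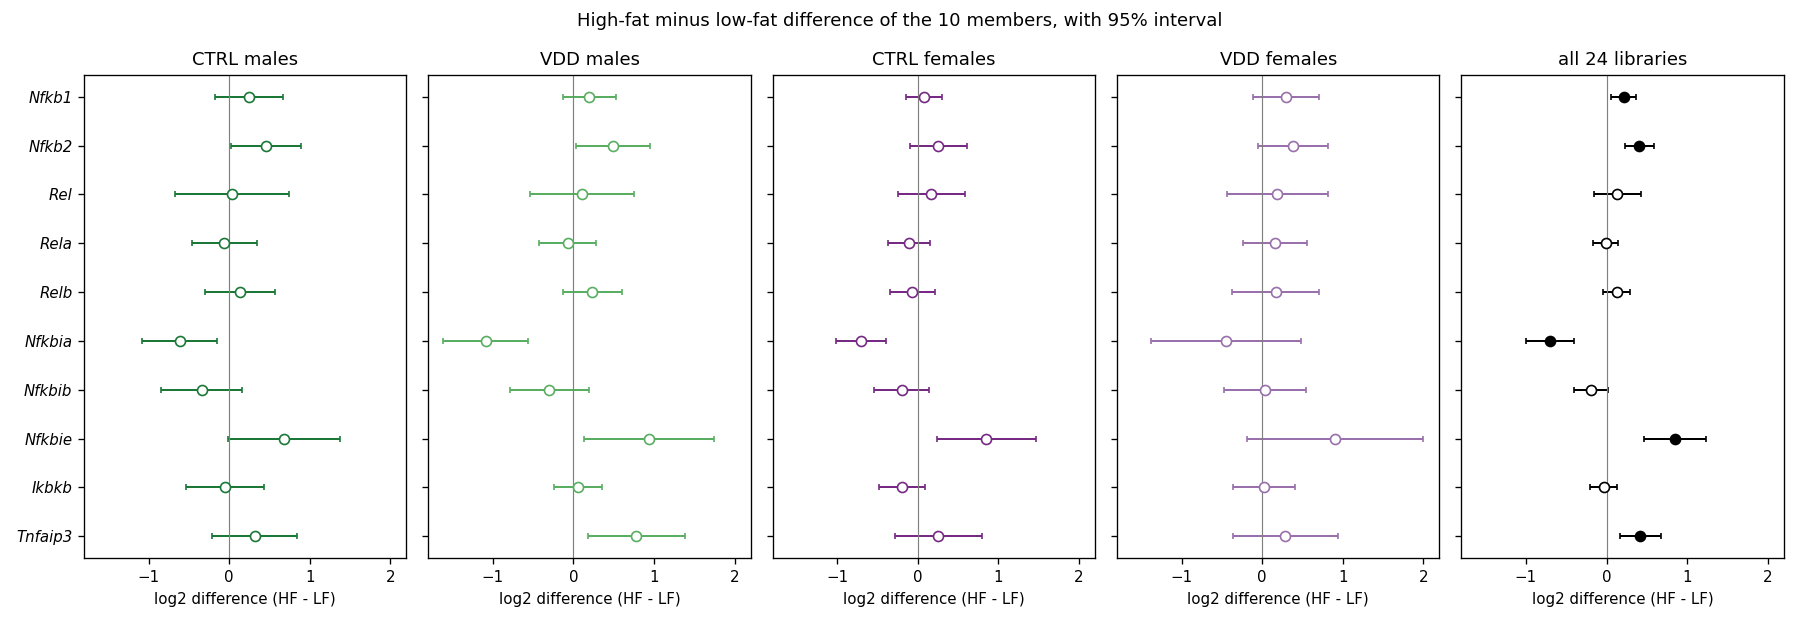
Log2 difference HF minus LF (x axis) with its 95% interval from limma for the 10 genes in the 4 pairwise comparisons (n = 3 against 3) and over all 24 libraries (right). Filled points passed an adjusted p of 0.05 in the fit over all libraries; pairwise points are open since none was called there, and Nfkbia lies below 0 in all panels (-1.09 to -0.44).

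The remaining genes did not pass the test. For Rela the log2 difference was -0.01, with a 95% interval from -0.16 to 0.14, and for Ikbkb it was -0.03 (-0.20 to 0.14). Relb, the partner of p52 in the non-canonical pathway, was at 0.13 (-0.05 to 0.30), and Rel, which encodes the lymphoid and myeloid subunit c-Rel, at 0.13 (-0.16 to 0.43). Nfkbib, the gene of IkB beta, was at -0.19 (-0.40 to 0.01, adjusted p = 0.151). Nfkbib overlaps the more abundant Sirt2 on the opposite strand, and the strand setting of the counting is not stated, so reads of the pair may be mixed. Nfkbib passed under upper quartile scaling (-0.26, adjusted p = 0.0423) and with limma array weights (-0.20, adjusted p = 0.0393).

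In the pairwise tables, with limma and the thresholds of the study, none of the 10 genes was called in CTRL LF vs. CTRL HF males (0.0578% of all genes called), VDD LF vs. VDD HF males (0.0752%), CTRL LF vs. CTRL HF females (0.0%) or VDD LF vs. VDD HF females (0.0%), and limma-voom called 0 as well. With DESeq2 at these thresholds the study reported far more genes in each of these comparisons. The 0 of 10 therefore belongs to limma and limma-voom with 3 against 3 mice and is not a result of the study. At an unadjusted p of 0.05, 2 of 10 genes passed in CTRL males (Nfkb2 higher, Nfkbia lower), beside 18.8% of all genes. In VDD males 4 of 10 passed (Nfkb2, Nfkbie and Tnfaip3 higher, Nfkbia lower), beside 25.9%. In CTRL females 2 of 10 passed (Nfkbie higher, Nfkbia lower), beside 28.8%, and in VDD females 0 of 10, beside 5.05%. With an adjusted p of 0.05 and no fold threshold, Nfkbia alone passed in VDD males (0.0454, beside 5.35% of all genes) and in CTRL females (0.0323, beside 7.4%). With 1 library left out it missed that threshold in 5 of 6 fits in VDD males, all but the one without mouse 2310 (adjusted p up to 0.166), and in 4 of 6 in CTRL females, all but those without mouse 2124 or 2291 (up to 0.113). The shares of all genes called in these small tables are themselves unsteady. In VDD males the 12 genes called at the thresholds of the study became 264 without mouse 2310, the library with the highest muscle sum, 619 in 1 fit over the 12 male libraries, 3 without mouse 2078 and 0 without 2302, 2298, 2308 or 2307 or with limma-voom, while the NF-kB genes called stayed at 0 in each of these fits. These strata were not shown to differ from each other. The test of the difference between maternal diets called 0 of 10 genes in males (0.0% of all genes) and 0 of 10 in females (0.0%), that between the sexes 0 of 10 (0.0435%), and that of all 3 factors 0 of 10 (0.00544%), with none of the 10 at an unadjusted p of 0.05 in any of the 4 tests and 0 called by limma-voom. For Nfkbia in males the HF difference on the VDD background minus that on the CTRL background was -0.48 on the log2 scale (95% interval -1.33 to 0.36).

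Macrophage markers moved with the same contrast. Of 8 markers, 7 were higher in HF-fed mice, beside 15.0% of all genes, with a median log2 difference of 0.95 over the list. No marker was at 0 in any library. The count was 6 under upper quartile scaling and 4 without the 6 renal-named libraries, where the median was 0.94. The fit without these libraries has fewer mice, and its share of all genes called is not given here or below. The summed level of the 8 markers ranged from 11915 to 23959 normalized reads in CTRL LF males and from 16417 to 26577 in CTRL HF males, and from 6020 to 17587 and from 11776 to 37912 in VDD males. In CTRL females it ranged from 5089 to 8183 on LF and from 12567 to 15123 on HF. In VDD females it ranged from 4537 to 9220 on LF and was 23058, 5312 and 6344 in the HF mice 2081, 2083 and 2121, in which Nfkbie was at 107, 41.2 and 59.7 and Nfkbia at 965, 1879 and 581. Mouse 2081 also had the highest T lymphocyte sum and mouse 2121 the second highest adrenal cortex sum, and the part of these tissues in the values of VDD HF females was not tested. Of the 4 libraries with the highest macrophage sums, 3 were also the 3 highest for Nfkbie, and the part of macrophage content in these differences was not tested. In males against females, all 8 macrophage markers were higher (median 0.92), and 0 of the 10 NF-kB genes passed the test, beside 19.8% of all genes. Of the other cell types, 0 of 6 B lymphocyte, 0 of 7 T lymphocyte and 0 of 6 skeletal muscle markers passed in HF against LF, and 2 of 6 adipocyte markers were lower (median -0.38), beside 14.2% of all genes lower. Without the 6 renal-named libraries, with fewer mice, 1 of 6 adipocyte markers was lower (median -0.34). The summed level of mesothelial markers was 3188 to 3414 on LF and 6035 to 11516 on HF in CTRL females, and overlapped in the other strata. Endothelial sums overlapped in every stratum. The part of these cells in the NF-kB values was not tested. With a term for the muscle marker sum, 5 of 10 NF-kB genes were still called.

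**Figure D3:**
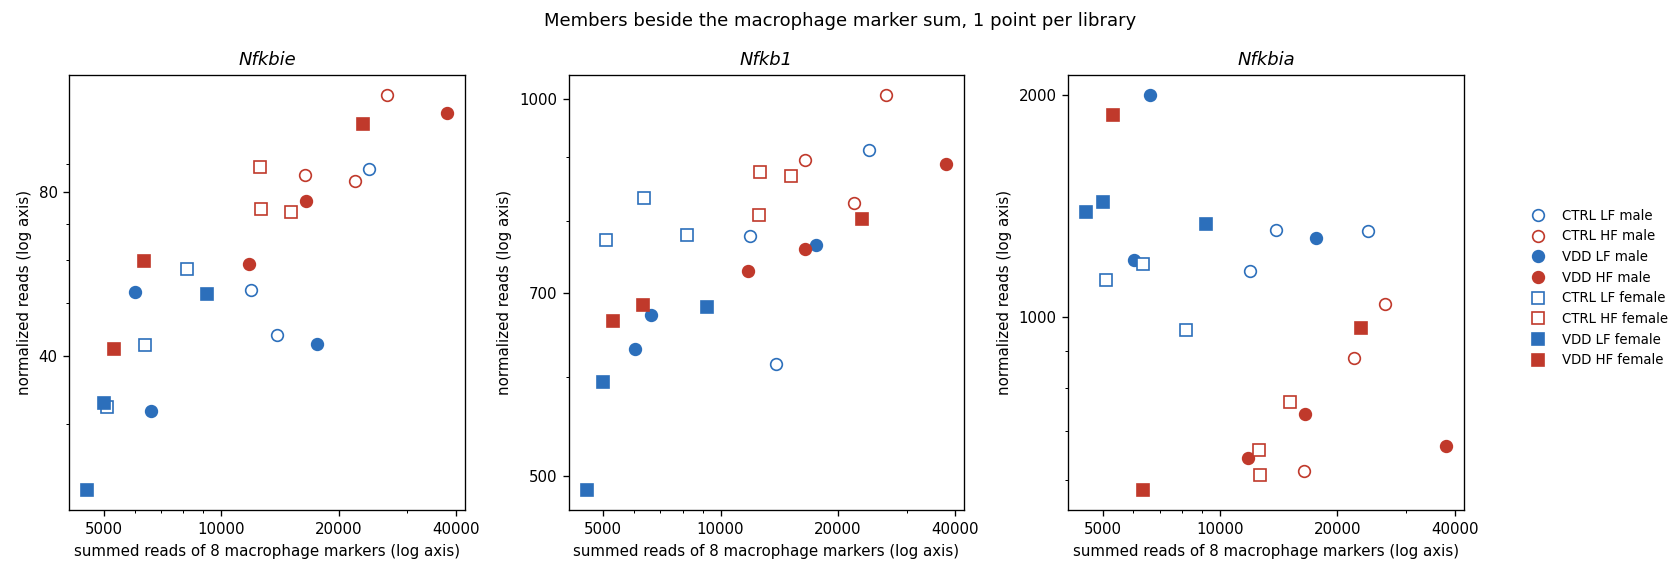
Normalized reads of Nfkbie, Nfkb1 and Nfkbia (y, log axis) against the summed normalized reads of 8 macrophage markers (x, log axis), 1 point per library. Circles are males, squares females, blue LF, red HF, filled VDD and open CTRL; Nfkbie and Nfkb1 tend to be higher where the macrophage sum is higher, and Nfkbia is at 1040 or less in all HF libraries but VDD HF female 2083.

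The other genes of the pathway were examined as a list. Like the target and marker lists, it was chosen with earlier results of these data known. Of its 70 genes, 64 could be tested. In HF against LF, 15 were higher and 5 lower, with a median log2 difference of 0.19, where 15.0% of all genes were higher and 14.2% lower. Under upper quartile scaling the count was 10 higher and 10 lower of 65 tested, with a median of 0.12. That scaling also moved the split over all genes called toward lower genes, so the size of the excess depended on the scaling. Without the 6 renal-named libraries, with fewer mice, the count was 9 higher and 3 lower, and the median was 0.18. By role, 1 of 4 tested ligands was higher, Tnfsf14 (0.85), a ligand of the lymphotoxin beta receptor. Its group means were low, from 4.12 normalized reads in CTRL LF males to 13.8 in VDD HF females. Of 14 receptors 2 were higher, Cd40 (0.81) and Ltbr (0.25), beside 15.0% of all genes higher. Of 30 adaptors and kinases 8 were higher and 4 lower. Card9 (0.74), an adaptor of fungal sensing in myeloid cells, Traf1 (0.69), Traf5 (0.56) and Traf3 (0.47), which couple receptors of the TNF family, were among the former. The others were Malt1 (0.35), Irak4 (0.35), Tradd (0.33) and Rbck1 (0.29). Chuk, which encodes IKK alpha, fell by 0.37 on the log2 scale, Tab3 by 0.60, Birc2 by 0.32 and Tab2 by 0.24. Among 16 other inhibitors and IkB-like genes, Tnip3 (1.66), an A20-binding inhibitor, Bcl3 (0.88) and Nfkbid (0.64), which encode nuclear IkB-like proteins, and Zc3h12a (0.28) were higher, and Nfkbil1 fell by 0.54.

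Of 34 known NF-kB target genes, 27 could be tested, and 10 were higher and 1 lower in HF against LF, beside the same shares of all genes, with a median log2 difference of 0.33. Without the 6 renal-named libraries, with fewer mice, 4 of 26 were higher and 0 lower, and the median was 0.40. The share of all genes called in that fit is not given here. The chemokine genes Ccl7 (1.65 ± 0.32, SE), Ccl2 (1.24 ± 0.30), Cxcl1 (1.06 ± 0.31) and Cxcl10 (0.79 ± 0.25) were among the 10 higher genes, all past an adjusted p of 0.05 with limma. By group means Ccl7 rose most in VDD males, from 22.8 ± 11.7 normalized reads (SD, n = 3) on LF to 129 ± 26.6 on HF. It went from 31.7 ± 19.9 to 68.4 ± 4.32 in CTRL males and from 18.9 ± 12.4 to 46.1 ± 16.4 in CTRL females. In VDD females it went from 13.5 ± 5.59 to 46.2 ± 39.4. The strata were not shown to differ, since no target gene was called in the tests of differences between strata. Csf1 (0.82), the macrophage growth factor, Cfb (0.99), a complement gene, Nos2 (0.77), Tnfaip2 (0.52), Irf1 (0.37) and Plau (0.32) were also higher. Bcl2l1, which encodes the survival protein Bcl-xL, fell by 0.39. In the pairwise tables the target with the smallest p was F3 in CTRL males (-0.60, adjusted p = 0.0968), Ccl7 in VDD males (2.53, 0.0259), Cd83 in CTRL females (1.05, 0.0306) and Lcn2 in VDD females (-1.63, 0.837). The pathway gene with the smallest p was Tnip3 in CTRL males (1.67, adjusted p = 0.133), Nfkbil1 in VDD males (-1.01, 0.0253), Il18 in CTRL females (1.17, 0.0388) and Bcl3 in VDD females (1.37, 0.837).

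**Figure D4:**
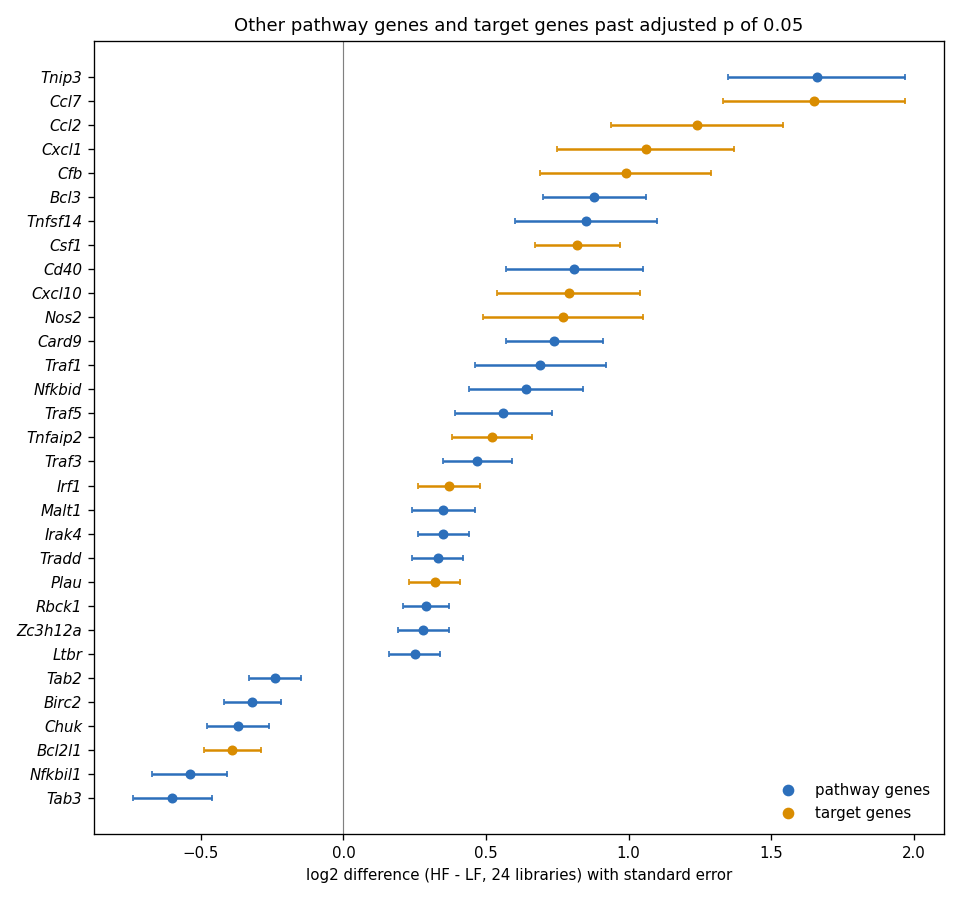
Log2 difference HF minus LF over 24 libraries (x axis) with its standard error for the 20 other pathway genes (blue) and 11 target genes (orange) past an adjusted p of 0.05. Tnip3 (1.66) and Ccl7 (1.65) are highest and Tab3 (-0.60) is lowest.

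The second question was whether maternal VDD altered the same genes. Over the 24 libraries Nfkb1 was lower in VDD offspring, by a log2 difference of -0.26 ± 0.07 (SE; 0.836-fold, adjusted p = 0.0488, limma). It was 1 of 10 genes past the threshold, 0 higher and 1 lower, where 4.59% of all genes were past it, 2.53% higher and 2.05% lower. In females Nfkb1 was at 834, 772 and 779 normalized reads in CTRL LF and 487, 595 and 683 in VDD LF. In HF females it was at 808, 875 and 869 in CTRL and 803, 665 and 685 in VDD. The maternal diets did not overlap on either offspring diet, but in HF females the nearest values were 808 and 803 (unadjusted p = 0.11, limma). Relb (lower in VDD) and Nfkbia (higher in VDD) also separated in LF females. The share of all genes that separate in this way was not counted. In males the maternal diets overlapped for Nfkb1, with 615, 911 and 778 in CTRL LF and 632, 765 and 673 in VDD LF. On HF the males were at 894, 827 and 1009 in CTRL and 729, 888 and 759 in VDD, also with an overlap. The call lay at the threshold. It was lost in 18 of the 24 fits that left out 1 library (adjusted p up to 0.094), and held without CTRL LF male 2293, CTRL HF male 2127, VDD LF male 2310, VDD HF male 2308, VDD LF female 2312 or VDD HF female 2081. It was also lost with limma-voom (0.0508), with a term for the muscle markers (0.104) and without the 6 renal-named libraries (0.232). With limma array weights 2 of 10 genes passed, where 28.3% of all genes did.

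**Figure D5:**
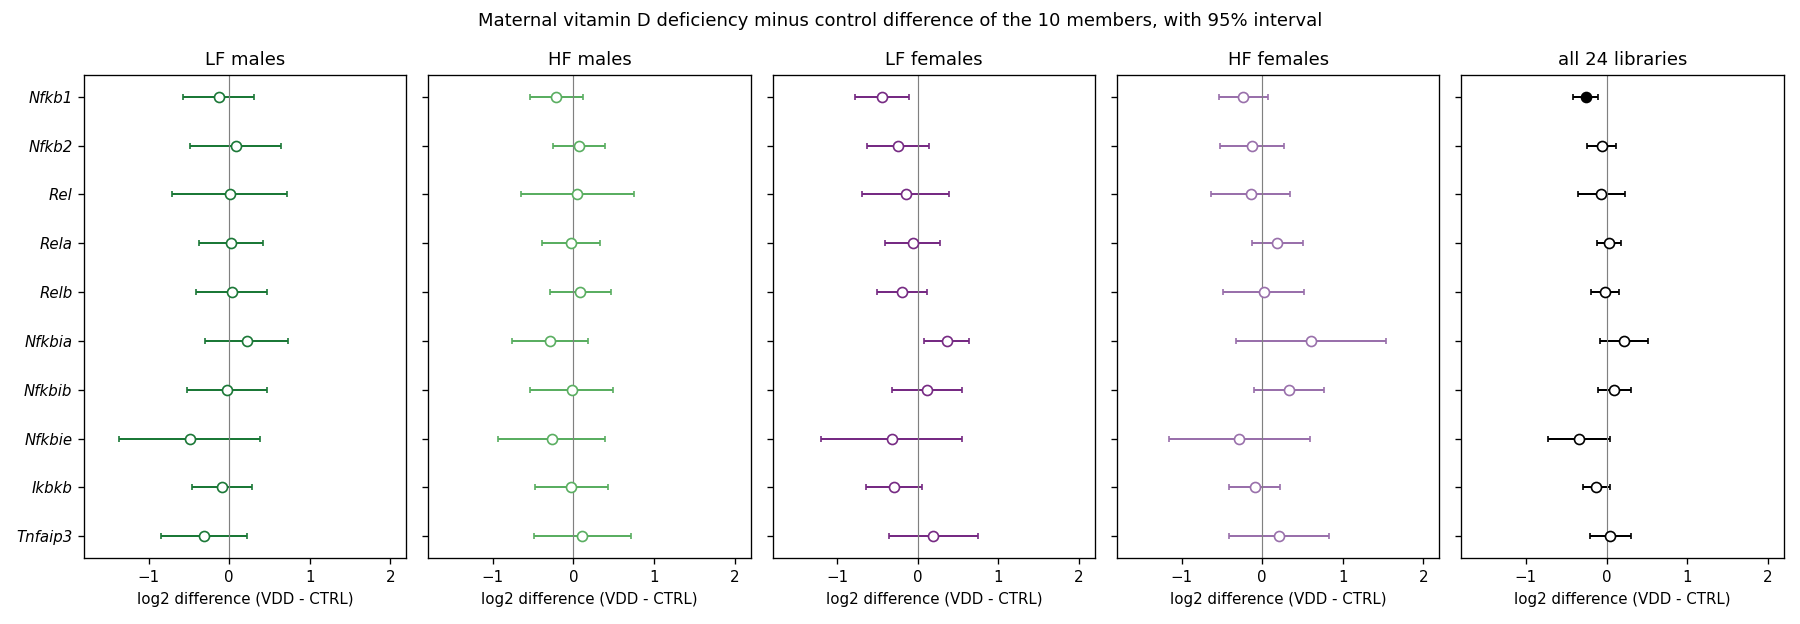
Log2 difference VDD minus CTRL (x axis) with its 95% interval from limma for the 10 genes in the 4 pairwise comparisons (n = 3 against 3) and over all 24 libraries (right). The filled point, Nfkb1 at -0.26, passed an adjusted p of 0.05; its value is below 0 in each panel.

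No other gene of the 10 passed in VDD against CTRL. Nfkbie was at -0.35 on the log2 scale (95% interval -0.73 to 0.04), Nfkbia at 0.22 (-0.08 to 0.52), Ikbkb at -0.13 (-0.30 to 0.04) and Rela at 0.03 (-0.12 to 0.18). In the pairwise tables none was called at the thresholds of the study in CTRL LF vs. VDD LF males, CTRL HF vs. VDD HF males, CTRL LF vs. VDD LF females or CTRL HF vs. VDD HF females with limma or limma-voom, beside 0.0% of all genes in each. Here too the study reported far more genes in each comparison with DESeq2 at these thresholds. At an unadjusted p of 0.05, 2 of 10 passed in LF females, where Nfkb1 was lower (-0.44) and Nfkbia higher (0.36), beside 12% of all genes. In LF males 0 of 10 passed (6.79% of all genes), in HF males 0 of 10 (5.31%) and in HF females 0 of 10 (16.7%). Each group enters 1 table for the offspring diet and 1 for the maternal diet, so these comparisons share libraries. The LF females include VDD LF female 2303, the library with the highest kidney marker sum, whose Nfkb1 value of 487 is the lowest of the 24; without it the difference of Nfkb1 was -0.32. Macrophage markers had a median log2 difference of -0.47 in VDD against CTRL, with 0 of 8 past the threshold, and their part in the Nfkb1 difference was not tested.

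In the pathway list 1 of 64 genes and in the target list 1 of 27 passed in VDD against CTRL, counts at or below the 4.59% of all genes. The former was Otulin (0.33, adjusted p = 0.0395), which encodes a deubiquitinase that limits linear ubiquitin chains. The latter was Csf1, which was lower (-0.66 ± 0.15, SE, adjusted p = 0.0223, limma). Csf1 had a mean of 479 ± 101 normalized reads (SD, n = 3) in CTRL LF females and 296 ± 50.7 in VDD LF females. In HF females it was 872 ± 79.7 in CTRL and 486 ± 142 in VDD. In males it was 603 ± 143 and 368 ± 200 on LF, and 905 ± 227 and 756 ± 180 on HF. In the pairwise tables the smallest p belonged to Mmp9 (-1.45) and Nfkbil1 (0.60) in LF males, Ccl7 (0.87) and Irak3 (-0.51) in HF males, Bcl2l1 (0.62) and Il1r1 (-0.38) in LF females, and Lcn2 (-1.89) and Il1r1 (-0.54) in HF females, none past the thresholds of the study.

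Between the sexes 0 of 10 genes passed an adjusted p of 0.05 with limma or limma-voom, beside 19.8% of all genes. At an unadjusted p of 0.05, Ikbkb passed (0.17 higher in males, 95% interval 0.00 to 0.34, adjusted p = 0.14). Without CTRL HF male 2127, whose Ikbkb value of 689 was the lowest among males, the difference was 0.23 with an adjusted p of 0.021. Of the 64 pathway genes tested 9 were higher and 2 lower in males, in both directions together a share below the 19.8% of all genes. By direction the list differed from all genes, of which more were lower than higher in males, a split that depended on the scaling. The higher ones included Ikbkg (0.36), the regulatory subunit of IKK, whose gene is X-linked, Card9 (0.80) and Irak2 (0.57). The others were Irak3 (0.49), Tank (0.33), Ripk1 (0.32), Tbk1 (0.31), Tab2 (0.30) and Zc3h12a (0.27). Tnfsf13b (-0.49), which encodes the B cell factor BAFF, and Tab1 (-0.26) were lower. Of the 27 targets tested 4 were higher and 1 lower in males, in both directions together also below the share of all genes, with the same difference by direction. Cfb (1.24), Cxcl1 (1.07), Ccl7 (1.00) and Cd83 (0.82) were higher and Gadd45b (-0.66) lower. In the tests of differences between strata the smallest p in the target list belonged to Saa3 (maternal by offspring diet in males, 4.69, adjusted p = 1.0), Cxcl10 (the same in females, 1.62, adjusted p = 0.767), Bcl2l1 (sex by offspring diet, -0.46, adjusted p = 0.528) and F3 (all 3 factors, 1.02, adjusted p = 0.565). In the pathway list it belonged to Nfkbil1 (-0.79, adjusted p = 1.0), Myd88 (0.46, adjusted p = 0.767), Ltb (-1.71, adjusted p = 0.427) and Myd88 again (-0.87, adjusted p = 0.537).

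The 10 genes did not vary as 1 set across the 24 libraries. The following correlations of log2 levels describe these libraries, which differ in diet and tissue makeup, and were not tested. Nfkb1 and Nfkbie were the most alike (Pearson r = 0.79, Spearman rho = 0.75, and r = 0.73 after the group means were subtracted), followed by Nfkb2 and Relb (0.69, 0.63 and 0.63) and by Rel and Nfkb1 (0.68, 0.61 and 0.80). No partner of Nfkbia, Nfkbib or Rela had an r above 0.44. Nfkbia and Nfkbib were most like each other (0.44 and 0.44), and that r was 0.03 once the group means were subtracted. Rela was most like Relb (0.44 and 0.42), with an r of 0.68 after that subtraction. The r of Nfkbia with Nfkbie was -0.64, and its value after the subtraction is not given here. The genes whose pattern was most like the mean of the 10 were Inpp5d (r = 0.88, rho = 0.79), which encodes the phosphatase SHIP1, Csf3r (0.88, 0.75), the receptor of granulocyte colony-stimulating factor, Arhgap45 (0.87, 0.76), C5ar2 (0.85, 0.75), a receptor of complement C5a, and Dok3 (0.84, 0.80), an adaptor protein. After the group means were subtracted their r was 0.92, 0.89, 0.86, 0.85 and 0.89.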

How the data were processed

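Total RNA from retroperitoneal adipose tissue of 3 mice per group was sequenced from stranded mRNA libraries. Per the labels and the methods of the study, the authors trimmed the reads, aligned unique reads to mm10 with STAR 2.7.0d, counted them per gene with featureCounts 1.6.1 on GENCODE genes and assembled transcripts, with DESeq2 for the group comparisons. Each of the 8 tables that the authors deposited holds log2(normalized reads + 1) values of 6 libraries, beside DESeq2 columns of fold changes and p-values, which were not used. Whole reads were recovered from the log2 values (100% of values within 0.02 of a whole number), and the reads of each library were identical in its 2 tables. Of 56899 entries, 4 with duplicated names were left out.

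Groups came from the labels. Columns carry mouse numbers, by which single libraries are named. Each pairwise comparison was tested with limma 3.58.1 (R 4.3.3, trend) on the deposited log2 values, for genes that reached 10 normalized reads in 3 or more of the 6 libraries (of the 24 in the overall fit). Limma was chosen because the deposited values are on the log2 scale. The recovered reads would also have allowed a count test like that of the study, which was not run, while limma-voom was run on them. The overall contrasts came from 1 limma fit of 8 group means over 24 libraries (16 residual degrees of freedom) on log2(normalized reads + 1), with median-of-ratios scaling. Adjusted p-values are Benjamini-Hochberg values over all genes tested, and differences of low genes are understated by the pseudocount of 1. Alternatives were other scalings, limma-voom, array weights, a pseudocount of 10, no filter, another threshold, each library left out and, chosen after seeing the data, terms for renal in the library name or for the muscle markers and a fit without the 6 renal-named libraries. The scripts were tested on simulated data. Named genes beyond the 10 were the gene with the smallest p in each list and comparison and every gene called. The 10 genes and all lists were chosen with earlier results of these data known. Promoter sequences are from RefSeq.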

Additional observations from a re-analysis of the deposited data

How the results depend on the processing

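In HF against LF, Nfkbia, Nfkbie and Nfkb2 kept their direction and stayed past the adjusted p of 0.05 in all 24 fits without 1 library and all 8 other fits. The count of 5 genes ran from 4 to 5 in the fits that left out 1 library. It was 6 with array weights, which add Nfkbib, 4 without a filter, where Nfkb1 is lost, 3 without the 6 renal-named libraries and 2 at the thresholds of the study. The fit without the renal-named libraries has fewer mice, and the share of all genes called in it is not given here. Upper quartile scaling kept the count at 5 with Nfkbib in place of Nfkb1, and moved the split over all genes called from 2755 higher and 2612 lower to 2175 and 3435; in males against females it moved 1663 and 1988 to 2098 and 1652, and in VDD against CTRL 466 and 378 to 348 and 436. It moved the median log2 difference of all genes in VDD LF vs. VDD HF males from 0.011 to -0.11. In VDD against CTRL the count of 1 gene ran from 0 to 1 in the fits that left out 1 library. It was 0 with limma-voom, without a filter, at the thresholds of the study, with the renal or muscle term and without the renal-named libraries, and 2 with array weights, where Nfkbie also passed (-0.46, adjusted p = 0.034) and 28.3% of all genes were called. In males against females the count of 0 ran from 0 to 1 in the fits that left out 1 library and was 1 with array weights, by Ikbkb (0.25). With an adjusted p of 0.05 and no fold threshold the count in HF against LF was 1 among VDD males and 1 among CTRL females. The other counts stayed at 0, and no member that passed changed sign under any alternative run. The causes were not tested. No paired analysis was possible because the library columns carry mouse numbers and not the replicate numbers of the labels, so the fits with a replicate block were not run. With 3 mice per group the 95% intervals of the pairwise log2 differences are wide, and a difference that missed the threshold is not shown to be absent.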
